A study of Mus musculus with 4 samples.

Results

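The 10 genes described here encode selenoproteins that are made in liver, and they were selected by name: *Selenop*, *Sephs2*, *Gpx1*, *Gpx4*, *Txnrd1*, *Txnrd2*, *Dio1*, *Selenof*, *Selenok* and *Selenow*. All 10 were found among the 35739 genes of a table of transcript abundance from mouse liver, and 14 other selenoprotein genes of the same table were used for comparison. RNA-seq was performed on liver of 4 mice, 1 library each, namely WT replicates 2 and 3 and *Usp21* KO replicates 1 and 3. The KO mice carried a constitutive deletion of exons 3 and 4 of *Usp21*, a deubiquitylase gene, in all tissues, made by crossing floxed mice with a Cre line after removal of the neomycin cassette with Flp recombinase. The allele was made in ES cells of another strain than C57BL/6, and the littermates came from crosses of C57BL/6 mice with KO carriers whose background was a mix of C57BL/6 and the ES cell strain. WT mice were littermates, all mice of the study were 10 to 11 weeks old and fed a normal diet, and the comparison asked which liver transcripts differ when *Usp21* is lost.

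Selenoproteins contain selenocysteine, an amino acid that carries selenium in place of the sulfur of cysteine and often sits in the active site of a redox enzyme. It is inserted at a UGA codon, which otherwise ends translation, by a dedicated tRNA, the elongation factor Eefsec and the protein Secisbp2 bound to a hairpin of the mRNA called the SECIS element. The liver takes up dietary selenium and returns it to the blood as selenoprotein P, and hepatocytes also use selenium for glutathione peroxidases, thioredoxin reductases and the type 1 deiodinase. When selenium is scarce, some selenoprotein mRNAs are known to be lost sooner than others, because an unread UGA upstream of an exon junction can mark an mRNA for nonsense-mediated decay.

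The selenocysteine codon is the feature that all 10 genes share, and it is shown for each gene with the 12 bases on either side, as DNA letters of the mRNA strand, 5′ to 3′, from GENCODE M21 (build GRCm38, the same assembly as mm10). Capitals mark the selenocysteine codon, and for *Selenop* the first of its 10 such codons is shown.
Selenop: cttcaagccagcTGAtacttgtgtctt
Sephs2: ggcatgaagggcTGAggctgcaaggtc
Gpx1: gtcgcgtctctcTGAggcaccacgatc
Gpx4: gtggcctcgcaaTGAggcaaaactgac
Txnrd1: cagtctggctgcTGAggttaagcccca
Txnrd2: gtgactggttgcTGAggctaagtcacc
Dio1: ggcagttgcaccTGAccttcatttctt
Selenof: gaagtctgcggaTGAaaattggggagg
Selenok: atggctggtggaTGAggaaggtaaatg
Selenow: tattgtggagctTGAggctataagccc
These codons lie in frame and are annotated as selenocysteine in GENCODE. In 7 of the 10 genes the next codon begins with GG, and the exceptions are *Selenop*, *Dio1* and *Selenof*. The *Txnrd1* and *Txnrd2* codons are followed by 1 more codon and the *Selenok* codon by 2 before the stop codon, so these sequences run a few bases past the end of translation.

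The position of the codon differed between the genes. *Selenop* (chr15:3268547-3280508, plus strand) has 10 selenocysteine codons between codon 59 in exon 2 and codon 377 in exon 5, in a coding sequence of 380 codons, while each of the other 9 genes has 1. It is codon 47 of 201 in *Gpx1* (chr9:108338903-108340343, plus strand, exon 1 of 2) and codon 73 of 197 in *Gpx4* (chr10:80047166-80056439, plus strand, exon 3 of 7). In the reductases it is the next to last codon before the stop, codon 498 of 499 in *Txnrd1* (chr10:82833951-82897712, plus strand, exon 14 of 14) and codon 526 of 527 in *Txnrd2* (chr16:18426384-18479073, plus strand, exon 17 of 17). *Dio1* (chr4:107291465-107307169, minus strand) has it at codon 126 of 257, in exon 2 of 4. The codon is number 93 of 162 in *Selenof* (chr3:144570304-144597680, plus strand, exon 3 of 5), 92 of 94 in *Selenok* (chr14:29968308-29975662, plus strand, exon 4 of 5) and 13 of 88 in *Selenow* (chr7:15917208-15922402, minus strand, exon 2 of 6). *Sephs2* (chr7:127271879-127274055, minus strand) has a transcript of 1 exon, with selenocysteine at codon 63 of 452. In the map of selenocysteine codons, the late codons of both reductases and *Selenok* contrast with the early codons of *Selenow*, *Gpx1* and *Sephs2*.

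**Figure D1:**
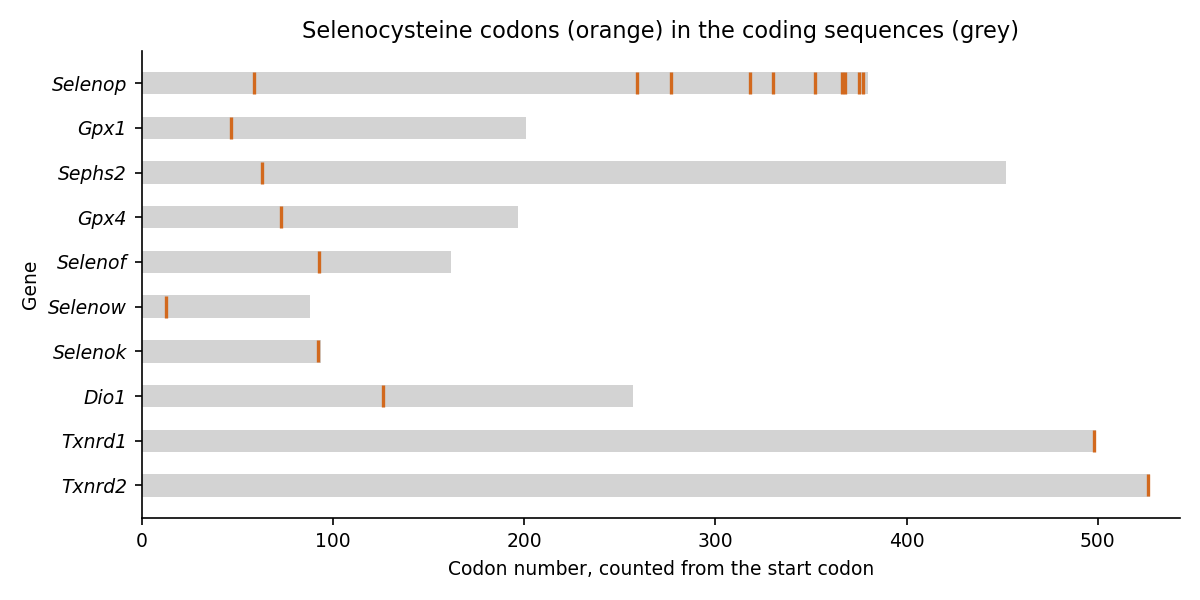
Coding sequences of the 10 genes (grey bars, length in codons on the x axis) with the selenocysteine codons as orange ticks, genes in order of mean TPM. *Selenop* has 10 ticks, of which 9 lie at codon 259 or later, and every other gene has 1.

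The libraries were checked before the members were compared. *Usp21* stood at 4.07 and 6.29 TPM in WT against 1.64 and 2.93 in KO. The difference of -0.92 on the log2 scale (SE 0.33) did not pass (adjusted p = 0.464, limma with Benjamini-Hochberg adjustment over 9581 genes). TPM gives each transcript as a share of all transcripts after correction for length, so levels can be compared between genes, but the depth behind it is unknown. The deposited count table gave between 102898 and 148164 reads per library. Hepatocyte markers summed to 80770 and 63880 TPM in WT against 66460 and 56320 in KO, and the erythroid list summed to between 719 and 911 TPM over the 4 libraries. Kupffer cell markers (176 and 202 TPM in WT against 94.5 and 243 in KO) and sinusoidal endothelial markers (41.9 to 62.5 TPM) overlapped between genotypes, and so did the lymphocyte and neutrophil list (5.78 and 45.0 TPM in WT against 6.68 and 3.55 in KO). The summed stellate list was higher in both KO libraries (85.0 and 64.0 TPM) than in both WT libraries (55.0 and 45.6 TPM). So was the summed cholangiocyte list (38.0 and 24.5 TPM against 14.6 and 15.9 TPM). Most of the stellate sum was *Dcn* (42.6 and 34.1 TPM in WT against 62.8 and 48.4 in KO). Most of the cholangiocyte sum was *Spp1* (13.2 and 12.7 TPM in WT against 33.4 and 20.7 in KO). KO lay above WT without overlap for 2 of 5 tested stellate genes and 1 of 2 tested cholangiocyte genes. The share over all genes was 34.4%. No marker of these 7 lists was at 0 in all 4 libraries. *S100a8*, a neutrophil gene, stood at 29.1 TPM in WT replicate 3 and between 0.74 and 2.26 TPM elsewhere. In bulk liver, fewer cells of a type and less RNA per cell cannot be told apart, and the part of these differences in the results below was not tested.

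Selenoprotein mRNAs were abundant in liver and covered a 173-fold range of mean TPM over the 4 libraries. *Selenop* (3180 TPM) and *Gpx1* (2865 TPM) led, at ranks 47 and 53 among the 9581 genes tested. They were followed by *Sephs2* (409.5 TPM), *Gpx4* (384.6 TPM), *Selenof* (169.4 TPM), *Selenow* (140.3 TPM), *Selenok* (76.7 TPM), *Dio1* (47.0 TPM), *Txnrd1* (27.1 TPM) and *Txnrd2* (18.4 TPM, rank 2767). Of the steps between neighbours in this order, 3 were wider than the spread over the 4 libraries, namely *Gpx1* over *Sephs2* (7.0-fold), *Gpx4* over *Selenof* (2.27-fold) and *Selenow* over *Selenok* (1.83-fold). All other neighbours had overlapping ranges. The order within a library was steady for some of these pairs, and *Sephs2* exceeded *Gpx4* in 4 of 4 libraries although their ranges overlapped.

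The summed level of the 10 mRNAs was 8008 and 7178 TPM in WT against 6726 and 7358 in KO, or 0.802%, 0.719%, 0.674% and 0.737% of all TPM in the same order. The means were 7593 ± 587 TPM (SD, n = 2) in WT and 7042 ± 447 TPM (SD, n = 2) in KO, a ratio of 0.927, and the groups overlapped. *Selenop* and *Gpx1* together made up between 81.1% and 84.5% of this sum. Without both, the sum was 1245 and 1301 TPM in WT against 1270 and 1276 in KO, a ratio of 1.00.

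**Figure D2:**
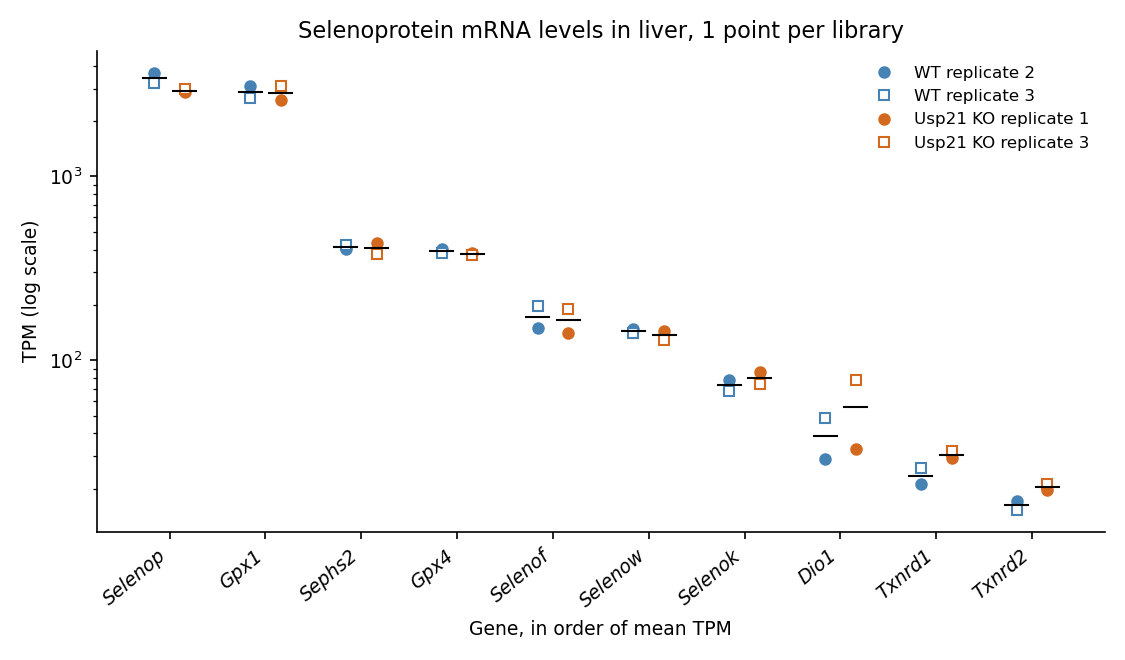
TPM (y axis, log scale) of the 10 selenoprotein genes in each library, with WT in blue, *Usp21* KO in orange and a black line at the mean of each genotype. *Selenop* and *Gpx1* lie between 2593 and 3666 TPM, *Txnrd2* lies between 15.4 and 21.3 TPM, and *Dio1* has the widest scatter.

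None of the 10 mRNAs passed an adjusted p of 0.05 between *Usp21* KO and WT (limma on log2(TPM + 1) with Benjamini-Hochberg adjustment), and none was under 0.05 before adjustment. Over all 9581 genes tested, 0.0835% passed the adjusted threshold and 10.5% were under 0.05 before adjustment (8.45% higher and 2.04% lower in KO). None of the 10 differed by 2-fold or more, compared with 3.68% of all genes. The KO libraries lay above the WT libraries without overlap for 2 of the 10 genes (*Txnrd1* and *Txnrd2*), where the share over all genes was 34.4%, and below them for 1 (*Selenop*), where it was 10.9%. The remaining 7 genes overlapped. The median log2 fold change of the 10 genes was -0.02, against 0.15 over all genes tested, and 3 of the 10 lay above the median of all genes.

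The intervals show how large a change these data allow. For 9 of the 10 genes the 95% interval of limma lay inside a 2-fold change in both directions, the exception being *Dio1*, and all 10 intervals included 0. These intervals use a variance shared between genes, and with each gene's own variance alone 7 of the 10 lay inside 2-fold. A p that misses the threshold does not show that the levels were equal.

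**Figure D3:**
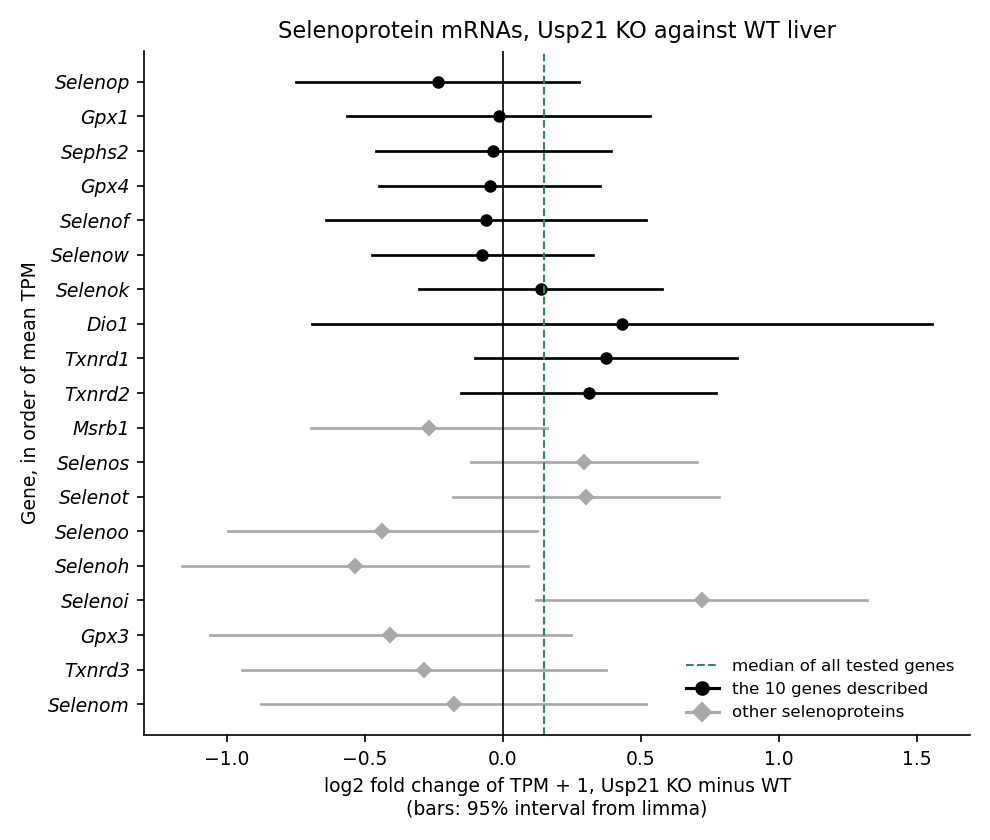
Log2 fold change of TPM + 1 (x axis, *Usp21* KO minus WT) with the 95% interval of limma for the 10 genes described (black circles) and the 9 other selenoprotein genes tested (grey diamonds), with a dashed line at the median of all genes tested (0.15). The intervals of all 10 genes described cross 0, and *Selenoi* is the gene among the others whose interval does not.

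Among the genes of selenium transport and supply, *Selenop* encodes the plasma protein that carries selenium from liver to other organs. Its level was 3666 and 3219 TPM in WT against 2863 and 2971 in KO. The KO libraries lay below the WT libraries without overlap, and the mean differed by -15.3% (3443 ± 316 TPM in WT, 2917 ± 76.0 TPM in KO, SD, n = 2). The log2 fold change was -0.24 (SE 0.21, 95% interval -0.75 to 0.28) with an adjusted p of 0.672 in limma after Benjamini-Hochberg adjustment. Relative to the median of all genes it was -0.39. *Sephs2*, which makes the selenophosphate that donates selenium and is itself a selenoprotein, had 403.7 and 424.1 TPM in WT against 432.2 and 378.1 in KO. Its KO libraries lay on either side of both WT libraries. The log2 fold change was -0.03 (SE 0.17).

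The glutathione peroxidases reduce peroxides with glutathione. *Gpx1*, the abundant cytosolic enzyme, was measured at 3097 and 2658 TPM in WT against 2593 and 3112 in KO. The KO libraries enclosed both WT libraries, and the log2 fold change was -0.01 (SE 0.22, 95% interval -0.56 to 0.53). *Gpx4*, the enzyme that reduces lipid hydroperoxides in membranes, had 400.4 and 381.5 TPM in WT against 384.7 and 371.7 in KO. Its log2 fold change was -0.05 (SE 0.16), and its coefficient of variation over the 4 libraries, 3.10%, was the lowest of the 10 genes. Over all genes tested 1.94% had a coefficient under 5%, and over the 3149 of them that averaged 15 TPM or more 4.45% did. The *Gpx4* level carries an uncertainty, since 74.1% of the 31-base words of its transcript also occur in pseudogenes on the same strand as annotated, of which *Gpx4-ps2* had 0.98 and 1.09 TPM in WT and was listed at 0 in both KO libraries. The ratio of *Selenop* to *Gpx1* was 1.18 and 1.21 in WT and 1.10 and 0.955 in KO, so *Gpx1* was the higher of the pair in KO replicate 3 alone.

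The thioredoxin reductases return oxidized thioredoxin to its reduced form, *Txnrd1* in the cytosol and *Txnrd2* in mitochondria. *Txnrd1* was at 21.2 and 25.8 TPM in WT against 29.3 and 31.9 in KO. Both KO libraries exceeded both WT libraries, and the mean was 30.3% higher. The log2 fold change was 0.37 (SE 0.19, 95% interval -0.10 to 0.85), with an adjusted p of 0.516 in limma after Benjamini-Hochberg adjustment. *Txnrd2* had 17.2 and 15.4 TPM in WT against 19.6 and 21.3 in KO. It too was higher in both KO libraries, by 25.6% in the mean, with a log2 fold change of 0.31 (SE 0.19, 95% interval -0.15 to 0.77) and an adjusted p of 0.555 by the same test. Relative to the median of all genes these fold changes were 0.22 and 0.16. The ratio of *Txnrd1* to *Txnrd2* was 1.23 and 1.68 in WT and 1.5 in both KO libraries.

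The separation of both reductases depended on the scaling. TPM fixes the total, and dividing each library by its upper quartile instead moved the median of all genes by -0.11, from 0.15 to 0.04, and the share of genes higher in KO from 66.7% to 54.0%. Under it no gene of the 10 changed sign, but *Txnrd1* (log2 fold change 0.24) and *Txnrd2* (0.19) then overlapped between genotypes. The KO libraries then lay below the WT libraries for *Selenop* (-0.37), *Gpx4*, *Selenow* and *Sephs2*. The share of all genes that lay below WT in this way was not counted under this scaling, so these genes have no background beside them.

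*Dio1* encodes the type 1 deiodinase, which converts the thyroid hormone thyroxine to the active triiodothyronine in liver. It had 28.9 and 48.2 TPM in WT against 32.9 and 77.9 in KO. Replicate 3 was the higher library in each genotype, the groups overlapped, and the coefficient of variation over the 4 libraries was 47.3%, compared with a median of 10.6% for the 10 genes and 15.7% for tested genes that averaged 15 TPM or more. The log2 fold change was 0.43 (SE 0.45, 95% interval -0.69 to 1.56). It was 1.04 without KO replicate 1, 0.79 without WT replicate 3, 0.07 without WT replicate 2 and -0.18 without KO replicate 3, so KO replicate 3 decided its direction.

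The remaining members are small proteins. *Selenof*, a protein of the endoplasmic reticulum that binds the folding sensor Uggt1, was at 149.0 and 196.6 TPM in WT against 141.1 and 190.8 in KO. As for *Dio1*, replicate 3 was the higher library in each genotype, and the log2 fold change was -0.06 (SE 0.23). *Selenok*, a membrane protein of the endoplasmic reticulum and partner of the palmitoyltransferase Zdhhc6, had 77.8 and 68.1 TPM in WT against 86.4 and 74.5 in KO, with overlapping groups and a log2 fold change of 0.14 (SE 0.18). Of its 31-base words, 14.7% are shared with pseudogenes on the same strand. *Selenow*, a small cytosolic selenoprotein, had 146.9 and 140.9 TPM in WT against 143.9 and 129.6 in KO, with a log2 fold change of -0.07 (SE 0.16). The 5 genes with overlapping groups and a mean above 100 TPM differed by less than 5% between the genotype means, and *Selenok* was 10.3% higher in KO.

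When libraries were left out 1 at a time, the sign of the fold change turned for 4 genes, *Gpx1*, *Dio1*, *Selenof* and *Sephs2*. The plot of fold changes with a library left out shows *Selenop* below 0 (-0.33 to -0.14) and *Txnrd1* (0.24 to 0.51) and *Txnrd2* (0.24 to 0.39) above 0 throughout.

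**Figure D4:**
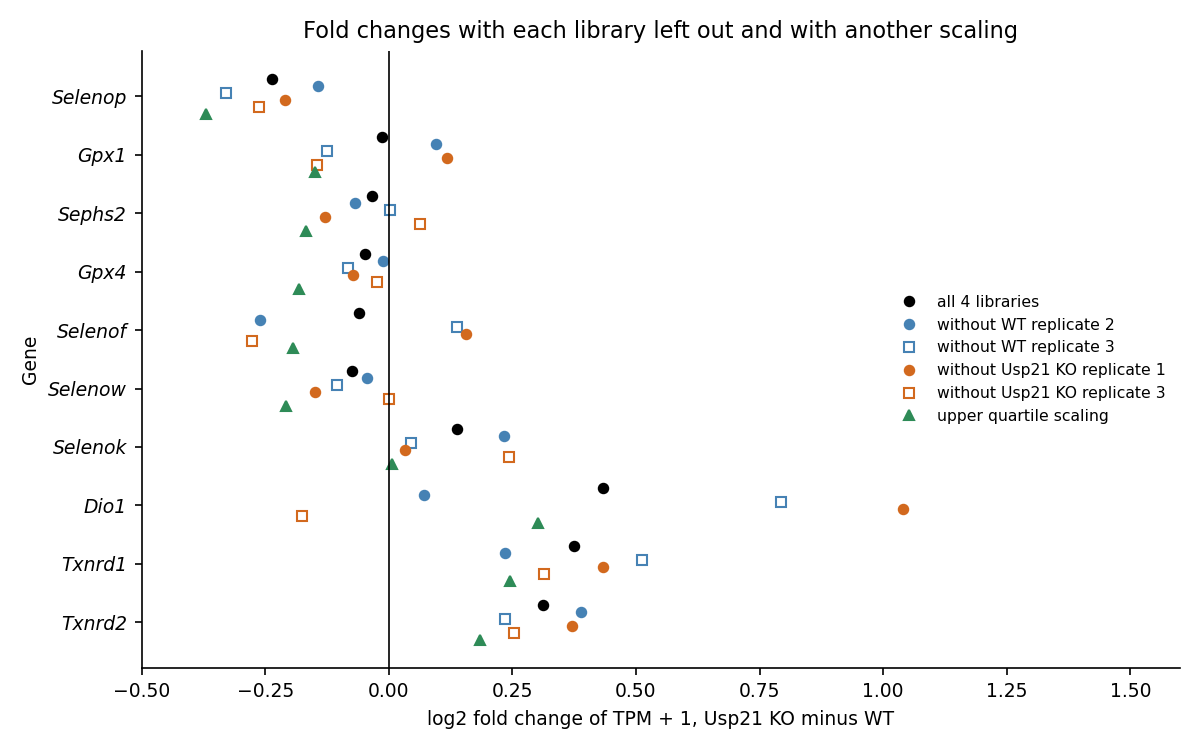
Log2 fold change of TPM + 1 (x axis, *Usp21* KO minus WT) of the 10 genes with all 4 libraries (black), with each library left out (blue and orange) and with upper quartile scaling (green). The *Dio1* values spread from -0.18 to 1.04, while *Gpx4* stays between -0.08 and -0.01 with a library left out.

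The 14 other selenoprotein genes were measured in the same libraries. *Gpx2*, *Dio2* and *Selenov* were listed at 0 in all 4, and 9 genes reached the mean of 1 TPM needed for the test. Of these 9, 3 were higher and 6 lower in KO, none passed the adjusted threshold in limma, and the groups did not overlap for 8 (3 above WT, 5 below), compared with 45.3% of all genes. *Msrb1*, a methionine sulfoxide reductase and the most abundant of them, had 401 and 423 TPM in WT against 318 and 368 in KO. *Selenos*, which takes part in the removal of misfolded proteins from the endoplasmic reticulum, had 63.1 and 64.0 TPM in WT against 73.4 and 83.1 in KO. *Selenot* had 42.0 and 53.1 TPM in WT against 62.0 and 55.1 in KO. *Selenoi*, an ethanolamine phosphotransferase of phospholipid synthesis, had 5.27 and 3.8 TPM in WT against 7.96 and 8.14 in KO. It was the 1 gene of the 9 with an unadjusted p under 0.05 in limma, where 10.5% of all genes were under it, so this share is close to the background (log2 fold change 0.72, SE 0.24, adjusted p = 0.464).

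Fold changes were also set beside the place of the selenocysteine codon relative to the last exon junction. This grouping was chosen after the values were seen, and it is a description without a test. For 6 of the 10 genes the first such codon lies more than 50 bases upstream of the last junction, from 78 bases in *Selenof* to 357 bases in *Selenop*. Of these 6, 1 was higher (*Dio1*) and 5 were lower in KO (median log2 fold change -0.05). The other 4 have the codon in the last exon (*Txnrd1* and *Txnrd2*), 5 bases from the last junction (*Selenok*) or in a transcript of 1 exon (*Sephs2*), and 3 were higher and 1 lower, with a median of 0.23. Over all 19 selenoprotein genes tested, the medians were -0.07 for the 10 genes with an upstream codon (2 higher, 8 lower) and 0.14 for the other 9 (5 higher, 4 lower), and the ranges overlapped (-0.54 to 0.43 and -0.44 to 0.72). For all genes tested the median was 0.15, and 66.7% were higher in KO. Among the 5 lower members with an upstream codon, the groups overlapped for all but *Selenop*. The signs of *Gpx1*, *Selenof*, *Dio1* and *Sephs2* turned with a library left out. A part of mRNA decay in these values was not tested.

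The machinery of selenocysteine synthesis and insertion had 12 tested genes, of which 10 were higher and 2 lower in KO (median log2 fold change 0.21, against 0.15 over all genes, and 0.08 under upper quartile scaling with 8 higher and 4 lower). None of the 12 had an unadjusted p under 0.05 in limma. *Rpl30*, a ribosomal protein that also binds the SECIS element, had 477.0 and 528.7 TPM in WT against 706 and 482.4 in KO. *Ncl*, nucleolin, had 32.0 and 59.8 TPM in WT against 75.7 and 48.0 in KO, and *Sars1*, the seryl-tRNA synthetase that charges the selenocysteine tRNA with serine, had 29.9 and 19.7 TPM in WT against 28.3 and 38.6 in KO. The groups overlapped for *Rpl30*, *Ncl* and *Sars1*, but not for every gene of the list. Of the 12 genes, KO lay above WT without overlap for 3 and below it for 1, where 34.4% and 10.9% of all genes did.

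In the list of selenium handling genes, 4 were tested, 1 was higher and 3 were lower in KO, and none had an unadjusted p under 0.05 in limma. The methyltransferase gene *Inmt* was at 452.9 and 893.7 TPM in WT against 505.2 and 532.3 in KO. The selenium-binding protein genes differed in direction, and the groups overlapped for neither. *Selenbp2* was at 225 and 308 TPM in WT against 570 and 326 in KO. *Selenbp1* was at 159 and 183 TPM in WT against 148 and 100 in KO. Of the 4 tested genes, KO lay above WT without overlap for 1 and below it for 2, where 34.4% and 10.9% of all genes did. *Lrp8* and *Lrp2*, receptors that take up selenoprotein P in other organs, did not exceed 0.062 TPM in any library.

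Of the redox partners of the selenoenzymes, 8 of 15 tested genes were higher and 7 lower in KO, where 66.7% of all genes were higher. The median log2 fold change was 0.02, against 0.15 over all genes. Under upper quartile scaling 4 were higher and 11 lower, with a median of -0.11 against 0.04 over all genes. None of the 15 had an unadjusted p under 0.05 in limma. *Sod1*, the cytosolic superoxide dismutase, had 2532 and 2233 TPM in WT against 2564 and 2294 in KO. *Prdx1*, a peroxiredoxin kept reduced by thioredoxin, had 961 and 1032 TPM in WT against 1192 and 1035 in KO. *Cat*, catalase, had 975 and 798 TPM in WT against 1184 and 1204 in KO (log2 fold change 0.44, SE 0.19). NRF2, a factor that responds to oxidants, is known to act on *Txnrd1* and on the 6 genes of the NRF2 list, of which *Slc7a11* was listed at 0 and 5 were tested. The glutathione synthesis genes *Gclc* (67.1 and 43.0 TPM in WT against 112 and 114 in KO) and *Gclm* (76.5 and 68.5 TPM in WT against 89.2 and 104 in KO) were higher in both KO libraries. *Nqo1*, a quinone reductase that the study itself picked from these libraries, was lower (4.84 and 3.89 TPM in WT against 2.46 and 1.08 in KO), and *Srxn1*, sulfiredoxin, was nearly level (12.7 and 11.6 TPM in WT against 11.8 and 12.3 in KO). The log2 fold change was 1.06 (SE 0.24) for *Gclc* and -0.99 (SE 0.33) for *Nqo1*, with adjusted p of 0.450 and 0.464 in limma after Benjamini-Hochberg adjustment.

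Of the thyroid hormone genes read beside *Dio1*, 8 of 10 tested were higher and 2 lower in KO, where 66.7% of all genes were higher. The median log2 fold change was 0.32, against 0.15 over all genes. Under upper quartile scaling 7 were higher and 3 lower, with a median of 0.20 against 0.04 over all genes. KO lay above WT without overlap for 4 and below it for 1, where 34.4% and 10.9% of all genes did. In limma 2 of the 10 had an unadjusted p under 0.05, against 8.45% of all genes in that direction. These were *Slc16a10*, a thyroid hormone transporter (16.1 and 12.1 TPM in WT against 25.6 and 24.5 in KO, log2 fold change 0.80, SE 0.21), and *Klf9*, a factor induced by thyroid hormone (43.2 and 29.8 TPM in WT against 72.4 and 48.7 in KO, log2 fold change 0.71, SE 0.28). The adjusted p was 0.464 and 0.472 with Benjamini-Hochberg adjustment in limma. *Ttr*, transthyretin, which carries thyroxine in blood, was at 7733 and 6787 TPM in WT against 7134 and 6935 in KO. *Thrsp*, a lipogenic gene that responds to thyroid hormone, reached 611 TPM in WT replicate 3 and was between 36.7 and 75.0 TPM in the other libraries. Its log2 fold change was -2.27 (SE 0.92) with all libraries and -0.77 without WT replicate 3. *Me1*, malic enzyme, had 50.1 and 58.5 TPM in WT against 56.5 and 86.6 in KO.

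The partners of *Selenof*, *Selenok* and *Selenos* in the endoplasmic reticulum had 3 of 6 tested genes higher and 3 lower, with a median log2 fold change of 0.09 (-0.04 under upper quartile scaling) and none with an unadjusted p under 0.05 in limma. *Vcp*, the ATPase that extracts misfolded proteins, had 95.5 and 88.5 TPM in WT against 113 and 105 in KO. *Derl2* had 103 and 99.5 TPM in WT against 85.2 and 94.2 in KO.

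*Selenop* is known to be transcribed together with gluconeogenic genes by Foxo1, Hnf4a and the coactivator encoded by *Ppargc1a*. All 5 genes of that list were higher in both KO libraries than in both WT libraries, with a median log2 fold change of 0.63 (0.52 under upper quartile scaling, with 4 of the 5 free of overlap), where 34.4% of all genes lay above WT in this way, while *Selenop* was at -0.24. One of them, *Ppargc1a*, was picked by the study from these libraries, and the study also reported it as raised in KO liver by RT-qPCR. The list was made with earlier results of these data known, so its counts beside the shares of all genes are a description only. An unadjusted p under 0.05 was found in limma for 3 of the 5, against 8.45% of all genes in that direction, and none passed the adjusted threshold. *Hnf4a*, the hepatocyte nuclear factor, had 112 and 105 TPM in WT against 171 and 155 in KO (log2 fold change 0.59, SE 0.16). *Foxo1* had 3.55 and 4.95 TPM in WT against 6.47 and 7.74 in KO (0.63, SE 0.25). *G6pc1*, glucose-6-phosphatase, had 22.4 and 31.6 TPM in WT against 56.4 and 173 in KO (1.85, SE 0.52, and between 1.05 and 2.65 with a library left out), and *Pck1*, the gluconeogenic carboxykinase, had 477 and 560 TPM in WT against 581 and 853 in KO (0.45, SE 0.24, and between 0.17 and 0.72).

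The deposited count table held few reads for most abundant liver genes. Of the 817 genes that averaged 100 TPM or more, 763 (93.4%) had no more than 3 reads in every library and 530 (64.9%) were listed at 0, so low counts there were not particular to selenoproteins. It listed 6 of the 10 at 0 in all 4 libraries, and *Selenop*, *Gpx1* and *Sephs2* had no more than 2 reads in any library, so these 9 could not be compared there. *Txnrd2* alone was above the limit of 3 reads that a count of 0 allows, with 31 and 16 reads in WT and 15 and 20 reads in KO. Its log2 fold change there was -0.48 in edgeR's quasi-likelihood test (adjusted p = 0.821, Benjamini-Hochberg), opposite in sign to the TPM value. *Selenop* overlaps 439 bp of *Ccdc152* (chr15:3280070-3303526, minus strand), a gene on the opposite strand that was looked up after the values were seen, and 19.9% of the 31-base words of the *Selenop* transcript occur in *Ccdc152* in reverse complement. *Ccdc152* had 9754 and 8121 reads in WT and 9057 and 5386 reads in KO, equal to 6.58%, 7.35%, 6.23% and 5.23% of all reads of each library, but no more than 0.178 TPM in any library of the salmon table. The KO libraries lay below the WT libraries, as for *Selenop* in the TPM table, with a log2 fold change of -0.44 in edgeR's quasi-likelihood test (adjusted p = 0.821, Benjamini-Hochberg). The strand setting of the counting is not given in the sources used here, and reads of a gene and of its opposite-strand partner cannot be told apart in this table.

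**Figure D5:**
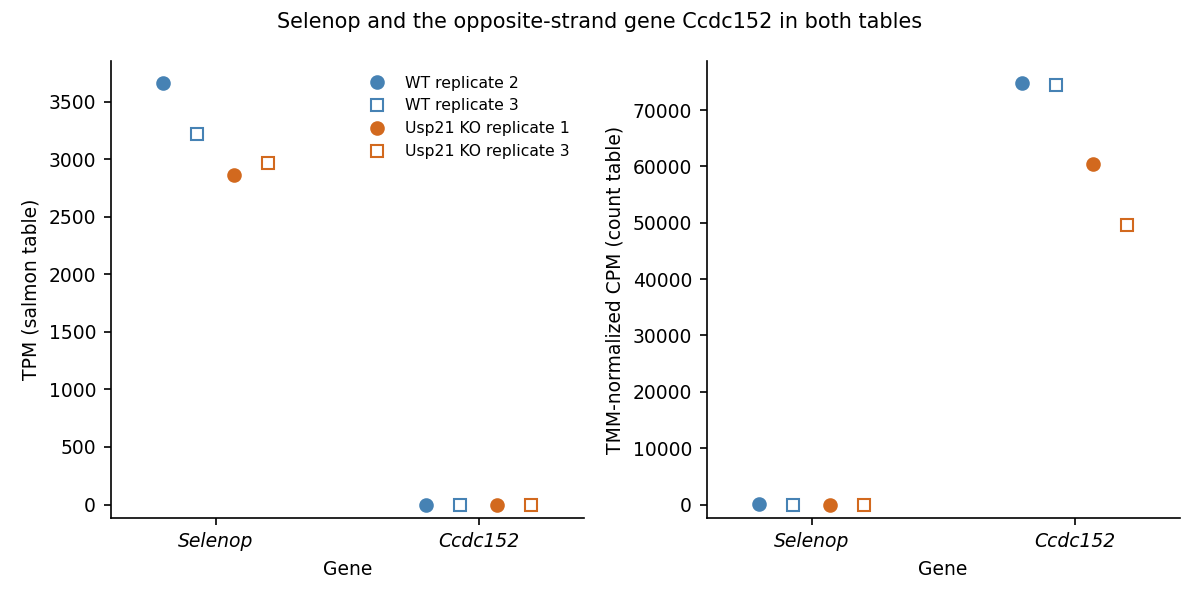
*Selenop* and the opposite-strand gene *Ccdc152* in the salmon table (left, TPM) and the count table (right, TMM-normalized CPM), with 1 point per library. *Selenop* lies between 2863 and 3666 TPM and near 0 CPM, and *Ccdc152* lies near 0 TPM and between 49676 and 74877 CPM.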

How the data were processed

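The genotype and replicate number of each library were taken from its title. The authors deposited TPM per Ensembl gene from salmon, and log2 tables computed by the authors from the TPM and the CPM, which were not used. The deposited TMM-normalized CPM, a signal that the authors made from HTSeq counts, came in whole steps in each library (100% of values whole within 0.02 reads), which gave the recovered reads. Tool versions, annotation release and strand setting are not given in the sources used here. No sample column of the 4 tables was left without a sample.

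The 9581 genes averaging 1 TPM or more were tested on log2(TPM + 1) with limma 3.58.1 (lmFit, eBayes with trend, prior degrees of freedom 3.62) in R 4.3.3, two-sided, with Benjamini-Hochberg adjustment. The pseudocount of 1 makes fold changes of low genes too small. Alternatives used edgeR 4.0.16 and DESeq2 1.42.0 on the recovered reads (5146 genes with a mean of at least 1 CPM), other pseudocounts (0.1 and 5), filters and scalings, and each library left out. The TPM were the main values because the members were defined as entries of the TPM table. An exact permutation test of 2 against 2 libraries cannot reach an unadjusted p of 0.05, so none was used. Marker and pathway lists came from general knowledge. The members, the lists and the choice of TPM were made with earlier results of these data known. Named are the 10 members, *Usp21*, the 3 most abundant tested genes of each pathway list and those with an unadjusted p under 0.05. Of the marker lists, a gene is named if it is at 0 or differs by at least 2-fold without overlap. Genes named outside this rule (*Lrp8*, *Lrp2*, *Ppargc1a*, *Dcn*, *Spp1*, the genes at 0, the pseudogenes and the opposite-strand genes) were chosen after their values were seen. Some genes within these rules are not reported here. Sequences, codons, coordinates and shared 31-base words came from GENCODE M21. Each test was tried on simulated data. Limits from read counts cover counting error only. The p-values measure the spread between these 4 mice, with 1 library each.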

Additional observations from a re-analysis of the deposited data

How the results depend on the processing

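Of 103 fold changes of the 10 genes under the alternatives, 10 had the opposite sign and none passed the adjusted threshold (lowest adjusted p 0.501, limma with Benjamini-Hochberg adjustment). When single libraries were dropped, the log2 fold change ranged from -0.15 to 0.12 for *Gpx1*, from -0.28 to 0.16 for *Selenof*, from -0.13 to 0.06 for *Sephs2* and from -0.18 to 1.04 for *Dio1*. The positive values of *Gpx1* were 0.10 without WT replicate 2 and 0.12 without KO replicate 1, those of *Selenof* 0.14 without WT replicate 3 and 0.16 without KO replicate 1, and those of *Sephs2* 0.0019 without WT replicate 3 and 0.063 without KO replicate 3. On the count table *Txnrd2* was at -0.46 in limma, -0.48 in edgeR and -0.47 in DESeq2, and the cause was not tested. Under upper quartile scaling the number of members with KO above WT without overlap went from 2 to 0 and the number below from 1 to 4, and the log2 ratio of the summed TPM from -0.11 to -0.24. With a library left out these numbers were 3 to 4 and 2 to 4, since 3 libraries overlap less often by construction, and the log2 ratio lay between -0.19 and -0.03. Shares of all genes without overlap were not counted under these alternatives. The number of members past the adjusted threshold was 0 under every alternative on the TPM.

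Over all genes, 8 passed the adjusted threshold in limma, against 0 without moderation, 0 with any library left out, 4 without a filter, 1 on the CPM table, 12 in edgeR and 1 in DESeq2. Genes with an unadjusted p under 0.05 numbered 1005, against 542 to 1188 with a library left out, 213 in limma on the CPM table, 168 in edgeR and 21 in DESeq2. At least 2-fold differences numbered 353, against 820 and 115 when the pseudocount was 0.1 and 5, 463 to 695 with a library left out and 2915 to 3134 on the count table. The 2-fold numbers from the counts are not comparable with those from the TPM. A single read equals between 6.68 and 9.22 CPM, so a single read in a single library could pass the filter of 1 CPM. The median SE of the log2 fold change was 1.91 in limma on the CPM and 3.73 in DESeq2, against 0.26 in the main test. No paired analysis was possible because the genotypes share a single replicate number. With 2 libraries per genotype, differences of the size seen for *Txnrd1* and *Txnrd2* did not pass the test, and the depth behind the TPM is unknown.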

Other observations

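Other members also had reads at a gene on the opposite strand in the count table, looked up after the values were seen. *Gm44729*, which overlaps 792 bp of *Sephs2* and shares 35.5% of its 31-base words in reverse complement, had 1079 and 659 reads in WT and 699 and 726 reads in KO, while *Sephs2* had at most 1 read. *Gm48228*, a gene elsewhere in the genome that holds 15.2% of the 31-base words of *Selenok* in reverse complement, had 60 and 53 reads in WT and 69 and 57 reads in KO, while *Selenok* had 0. No explanation of these values was tested.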
